A study of Mus musculus with 9 samples.

Results

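The expression of 10 genes that encode structural proteins of the vascular basement membrane (Col4a1, Col4a2, Col18a1, Lama4, Lama5, Lamb1, Lamc1, Nid1, Nid2 and Hspg2) was examined in primary mouse lung endothelial cells (MLEC) of 3 genotypes that differ in Cre and in their JNK alleles. The genes were chosen by name, and all 10 were found among the 37104 loci of the deposited expression tables. The cells were cultured from the lungs of C57BL/6J mice aged 10 to 12 weeks. ECtrl cells were Cdh5-Cre+ Jnk1+/+ Jnk2+/+, EfCtrl cells were Cdh5-Cre- with LoxP-flanked Jnk1 and Jnk2 alleles, and E3KO cells were Cdh5-Cre+ with the same flanked alleles. All 3 groups were Jnk3-/-, so the controls also lacked one JNK gene. Cdh5-Cre is driven by the promoter of VE-cadherin. Each group had 3 libraries, each from a separate isolation of pooled mouse lungs. Values are FPKM, the number of sequenced fragments of a transcript scaled by its length in kilobases and by the size of the library. These files give no fragment counts, so the depth behind each value is unknown.

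The basement membrane is a thin sheet of extracellular matrix on which endothelial cells rest. Laminins, trimers of an alpha, a beta and a gamma chain, polymerise at the cell surface. Type IV collagen, made from the alpha chains that Col4a1 and Col4a2 encode, forms another network, and nidogens and the heparan sulfate proteoglycan perlecan (Hspg2) connect them. Col18a1 encodes a basement membrane collagen whose C-terminal fragment is endostatin. JNK is a stress-activated protein kinase whose substrates include cJun, a component of the AP-1 transcription factor.

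Before the results, 1 library needs a remark. Mapk8, which encodes JNK1, was 14.0 to 17.9 FPKM in the 6 control libraries, 8.77 in E3KO replicate 2 and 4.65 in E3KO replicate 3, but 20.7 in the library labelled E3KO replicate 1. That library was above every control for a gene that its label gives as deleted. Mapk9, which encodes JNK2, was 27.6, 35.1 and 20.7 FPKM in E3KO replicates 1, 2 and 3 and 42.7 to 50.9 in the controls, and it fell (log2 fold change -0.75, SE 0.15, limma adjusted p = 0.0359). Against each control group alone Mapk9 was not called (limma adjusted p = 0.063 against ECtrl and 0.1 against EfCtrl). Without the library labelled E3KO replicate 1, Mapk8 was called lower and Mapk9 was not called, and leaving out any other library but E3KO replicate 2 also ended the call of Mapk9. Mapk8 overlaps a processed pseudogene on the other strand, Gm46448, and the strand setting of the quantification is not given in the sources used here. Mapk10, which encodes JNK3, was at most 0.27 FPKM in every library. The sum of FPKM over all symbols was 9841812 in the library labelled E3KO replicate 1, against 656089 to 908401 in the others, and 96.4% of it lay in 10 symbols, led by Gm12563 and Mir5105. Over the genes tested, its median log2(FPKM + 1) was 0.074 below the mean of the libraries.

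Endothelial identity was clear in every library. Pecam1 was 643 to 798 FPKM and Cdh5, which encodes VE-cadherin, was 613 to 943. The lymphatic markers Lyve1 (1513 to 2050 FPKM) and Prox1 (58.1 to 158 FPKM) were also abundant, whereas Vwf, which encodes von Willebrand factor, was 0.356 to 2.15.

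Nid1 had the largest difference between E3KO and control cells among the 9 members tested. Nidogen-1 links laminin to type IV collagen. The gene occupies chr13:13437602-13512275 in the files (mm10), and GENCODE M21 places an antisense gene, Gm48682, across it. The sources used here do not give the strand setting of the quantification, so reads of the antisense gene cannot be told apart from those of Nid1. The RefSeq promoter window of Nid1 is shown because Nid1 separated the groups. It spans chr13:13437352-13437651 (GRCm38.p6, plus strand), 250 bases before to 50 after the annotated start, and capitals mark a GC box (GGGCGG).
Nid1 promoter: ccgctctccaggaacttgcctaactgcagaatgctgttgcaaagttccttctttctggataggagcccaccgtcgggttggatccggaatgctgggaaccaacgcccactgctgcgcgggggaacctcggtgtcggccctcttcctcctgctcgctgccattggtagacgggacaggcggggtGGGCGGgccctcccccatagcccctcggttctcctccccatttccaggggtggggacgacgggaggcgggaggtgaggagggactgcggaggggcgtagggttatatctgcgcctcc

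Nid1 was 118, 131 and 128 FPKM in ECtrl replicates 1, 2 and 3. It was 126, 127 and 131 FPKM in the EfCtrl replicates. It was 142 FPKM in the library labelled E3KO replicate 1, 192 in E3KO replicate 2 and 257 in E3KO replicate 3. Every E3KO library lay above every control library, and the E3KO libraries were spread far more widely (SD 57.5 FPKM, n = 3) than the controls (SD 5.03 FPKM, n = 6). Mean Nid1 expression in E3KO cells was 1.55 times that of the controls. The difference did not pass the genome-wide test against the mean of the controls (log2 fold change 0.59, SE 0.17, limma adjusted p = 0.0853). It was 0.60 against ECtrl (limma adjusted p = 0.142) and 0.58 against EfCtrl (limma adjusted p = 0.186). These fold changes are on the log2(FPKM + 1) scale, and a gene is called at an adjusted p under 0.05 among 10605 genes with a group mean of at least 2 FPKM. An exact two-sided permutation test of Nid1 alone, 3 E3KO against 6 control libraries, gave p = 0.0119, the smallest that 84 splits allow, and 0.0238 when the smaller tail was doubled instead. This p is not adjusted over the members, and it restates that the groups of the gene with the largest difference did not overlap.

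The call for Nid1 depended on single libraries. Without the library labelled E3KO replicate 1 the log2 fold change was 0.80 and passed against the mean of the controls (limma adjusted p = 0.0266) and against ECtrl (0.0397), but not against EfCtrl (0.0559). Without E3KO replicate 3 it was 0.38 (limma adjusted p = 0.182). Weighting the libraries by their estimated quality gave 0.80 (limma adjusted p = 0.00624).

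**Figure D1:**
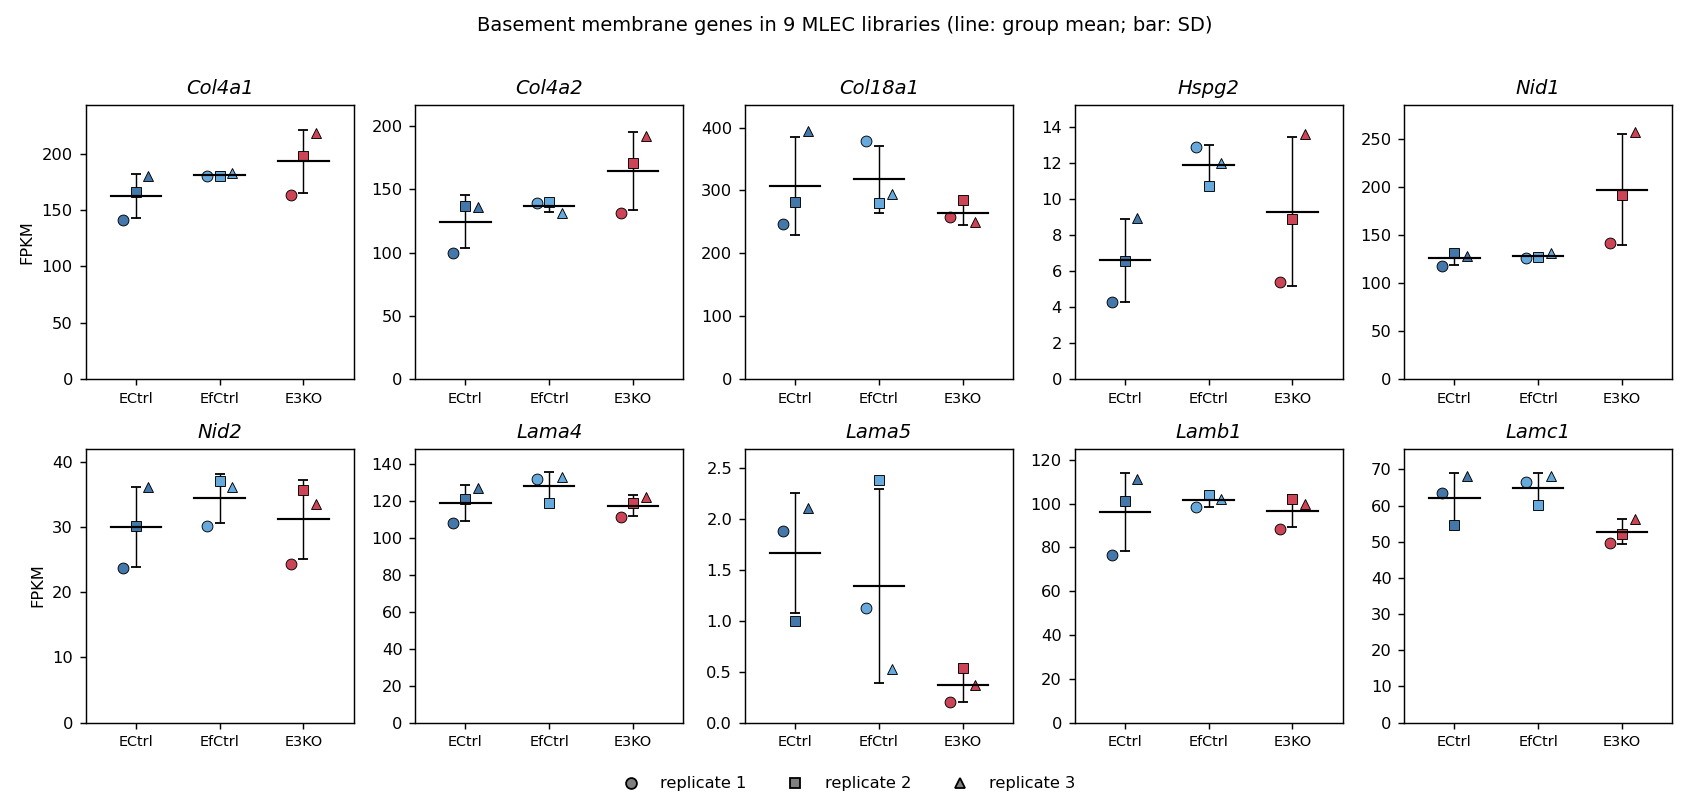
FPKM (y axis, from 0, a separate scale for each gene) of the 10 basement membrane genes in the ECtrl, EfCtrl and E3KO libraries; each symbol is 1 library, the line the group mean and the bar the SD (n = 3). Only for Nid1 do all 3 E3KO libraries (142 to 257 FPKM) lie above all 6 control libraries (118 to 131 FPKM).

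None of the 9 members tested was called in E3KO against the mean of the controls, where 4.8% of all genes tested were called. None was called against ECtrl (2.25% of all genes) or against EfCtrl (0.952% of all genes). Without the library labelled E3KO replicate 1, 1 member, Nid1, was called higher against the mean of the controls, beside 1.22% of all genes. At an unadjusted p under 0.05, 2 of the 9 members passed against the mean of the controls, Nid1 and Lamc1, beside 23.8% of all genes. The median log2 fold change was -0.02 over the 9 members and -0.08 over all genes tested. Nid1 was the 1 member of 9 with every E3KO library above all controls, which held for 5.18% of all genes, and 0 of 9 had every E3KO library below, which held for 11.5%. All of these comparisons used the same E3KO libraries, so they share samples.

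Neither type IV collagen chain was called, although Col4a2 was when the libraries were weighted by their estimated quality. Col4a1 and Col4a2 encode the chains that join in one trimer, and the genes lie head to head on chromosome 8. The files give both genes a single span, chr8:11187755-11449287, and their GENCODE transcripts overlap by 22 bases. They lie on opposite strands and each overlaps an antisense gene, and the strand setting of the quantification is not given in the sources used here, so the values of these genes and their ratio carry that limit. Both RefSeq promoter windows are shown because the windows overlap: capitals mark the 78 bases that the windows have in common (chr8:11312777-11312854), written on the minus strand for Col4a1 and on the plus strand for Col4a2 (GRCm38.p6).
Col4a1 promoter: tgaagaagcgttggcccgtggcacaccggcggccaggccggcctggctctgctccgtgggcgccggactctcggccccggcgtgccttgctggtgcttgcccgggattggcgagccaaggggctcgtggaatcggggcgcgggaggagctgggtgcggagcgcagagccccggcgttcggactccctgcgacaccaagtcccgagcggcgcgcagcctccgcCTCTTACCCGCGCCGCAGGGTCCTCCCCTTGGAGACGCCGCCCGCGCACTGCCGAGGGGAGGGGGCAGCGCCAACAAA
Col4a2 promoter: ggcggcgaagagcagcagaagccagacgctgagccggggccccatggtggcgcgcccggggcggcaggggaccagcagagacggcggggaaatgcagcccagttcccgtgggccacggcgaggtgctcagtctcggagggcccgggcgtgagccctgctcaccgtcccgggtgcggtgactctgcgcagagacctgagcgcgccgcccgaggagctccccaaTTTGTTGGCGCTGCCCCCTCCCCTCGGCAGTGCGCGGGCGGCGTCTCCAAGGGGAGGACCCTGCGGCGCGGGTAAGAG

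Col4a2 was 100.0, 137 and 136 FPKM in the ECtrl replicates and 139, 140 and 131 in the EfCtrl replicates. It was 131 FPKM in the library labelled E3KO replicate 1, 171 in E3KO replicate 2 and 192 in E3KO replicate 3. The latter 2 were above all controls, and the first lay among them. The log2 fold change was 0.32 (SE 0.15, limma adjusted p = 0.239), 0.48 (limma adjusted p = 0.1) without the library labelled E3KO replicate 1 and 0.21 (limma adjusted p = 0.468) without E3KO replicate 3. With library quality weights it was 0.46 and passed (limma adjusted p = 0.0236), as it did against EfCtrl (0.40, limma adjusted p = 0.0416) but not against ECtrl (0.52, limma adjusted p = 0.0708). Col4a1 was 141, 166 and 180 FPKM in ECtrl and 180, 180 and 183 in EfCtrl. It was 163, 198 and 218 FPKM in the E3KO replicates, which overlapped the controls in the same way. Its log2 fold change was 0.16 (95% interval -0.11 to 0.44, limma adjusted p = 0.433), 0.28 without the library labelled E3KO replicate 1 and 0.07 without E3KO replicate 3.

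Among the laminin chains, Lama4 and Lamb1 were close to the controls, and none of the chains tested was called. Lamc1, the gamma chain of most endothelial laminins, was 63.5, 54.6 and 68.1 FPKM in ECtrl, 66.4, 60.2 and 68.2 in EfCtrl and 49.6, 52.2 and 56.4 in E3KO. Every E3KO library lay below every EfCtrl library, which held for 19.8% of all genes tested, and the groups overlapped against ECtrl. The log2 fold change was -0.26 (SE 0.10, limma adjusted p = 0.174), and the exact permutation p of Lamc1 alone, not adjusted over the members, was 0.0357. Lamc1 overlaps Gm8818, a processed pseudogene on the other strand, with the same limit on strand, which its ratio to Lamb1 shares. Lama4 and Lama5 encode the alpha chains of the main endothelial laminins.

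Lama4 was 108 to 133 FPKM in the 6 controls and 111, 119 and 122 in E3KO, with a log2 fold change of -0.07 (95% interval -0.28 to 0.15). Lamb1, a beta chain, was 76.5 to 111 FPKM in the controls and 88.2, 102 and 99.8 in E3KO, with a log2 fold change of -0.02 (95% interval -0.31 to 0.27). Both E3KO ranges lay inside the control ranges. The log2 fold changes were -0.03 for Lama4 and 0.04 for Lamb1 without the library labelled E3KO replicate 1. Lama5 was 1.88, 0.997 and 2.11 FPKM in ECtrl, 1.12, 2.38 and 0.522 in EfCtrl and 0.198, 0.534 and 0.368 in E3KO. It did not reach a group mean of 2 FPKM and was left out of the test. With a minimum of 1 FPKM its log2 fold change was -0.82 (SE 0.25, limma adjusted p = 0.108). Every E3KO library lay below every ECtrl library for Lama5, as for 15.9% of the genes that were tested, and overlapped EfCtrl.

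Nid2, the paralog of Nid1, was 23.7 to 37.0 FPKM in the controls and 24.3, 35.7 and 33.5 in E3KO (log2 fold change -0.05, 95% interval -0.43 to 0.34). The value turned to 0.12 without the library labelled E3KO replicate 1 and was -0.11 without E3KO replicate 3. Nid2 overlaps Rtraf, a coding gene on the other strand, with the same limit on strand. Col18a1 was 246, 281 and 395 FPKM in ECtrl, 379, 280 and 295 in EfCtrl and 258, 284 and 249 in E3KO. The E3KO libraries lay within the control range (log2 fold change -0.23, SE 0.17, limma adjusted p = 0.431). With 1 library left out the value was -0.30 to -0.13. Col18a1 overlaps Slc19a1 on the other strand, with the same limit.

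Hspg2, the perlecan gene, was not called in any comparison, but its control groups did not overlap. It was 4.29, 6.56 and 8.91 FPKM in ECtrl and 12.9, 10.7 and 12.0 in EfCtrl. In E3KO it was 5.41, 8.87 and 13.6 FPKM, a range that spanned most of both. The log2 fold change was 0.41 against ECtrl and -0.40 against EfCtrl, and neither passed the test (limma adjusted p = 0.492 and 0.524). These values were 0.71 and -0.10 without the library labelled E3KO replicate 1 and 0.12 and -0.69 without E3KO replicate 3, and none of the 4 was called. Between the controls the log2 fold change was 0.81, with an unadjusted moderated p of 0.0326 and an adjusted p of 1 from the limma fit across all genes. Every EfCtrl library was above every ECtrl library for 3.48% of all genes. No gene was called between the controls (0.0%) by limma, and 195 (1.84%) had an unadjusted p under 0.05, of which Hspg2 was the 1 member. All 9 members tested had a log2 fold change above 0 in EfCtrl against ECtrl, with a median of 0.11, beside -0.01 over all genes, of which 48.0% were above 0. This rested on ECtrl replicate 1: without it 6 of the 9 were above 0 (49.7% of all genes), Col18a1, Lamb1 and Nid1 were below, and the median was 0.05.

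**Figure D2:**
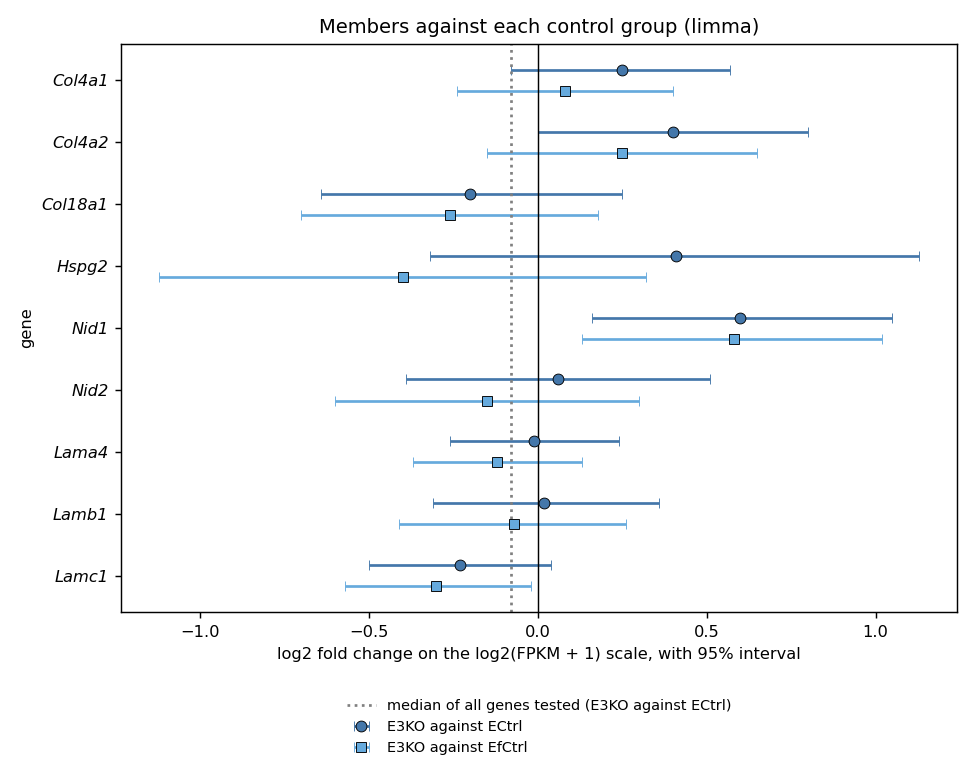
Log2 fold change on the log2(FPKM + 1) scale (x axis) with its 95% limma interval for the 9 members tested (y axis), E3KO against ECtrl (circles) and against EfCtrl (squares); the dotted line is the median of all genes tested, -0.08. Nid1 lies highest in both (0.60 and 0.58), and Hspg2 lies on opposite sides of 0 (0.41 and -0.40).

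Ratios between chains were also compared within each library. The ranges are ratios of FPKM, and the log2 differences were tested on FPKM + 1. The ratio of Nid1 to Nid2 was 3.42 to 4.97 in the controls and 5.37 to 7.66 in E3KO, without overlap. Its log2 value was 0.63 higher in E3KO (exact permutation p = 0.0119, adjusted over the 4 ratios compared 0.0476). The ratio of Col4a2 to Col4a1 was 0.712 to 0.826 in the controls and 0.804 to 0.88 in E3KO, and the groups overlapped (log2 difference 0.16, exact permutation p = 0.0357, adjusted 0.0476). The ratio of Lama4 to Lama5 was 49.8 to 255 in the controls and 223 to 560 in E3KO (log2 difference 0.76, exact permutation p = 0.0357, adjusted 0.0476), and it rests on the low values of Lama5, so that the log2 difference was 1.07 with a pseudocount of 0.5 and 1.63 with one of 0.1. The ratio of Lamb1 to Lamc1 was 1.21 to 1.85 in the controls and 1.77 to 1.95 in E3KO (log2 difference 0.24, exact permutation p = 0.107, adjusted 0.107).

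Whether the first 3 ratios pass depends on how the two-sided p is formed. The values above count the splits with an absolute difference at least as large. Doubling the smaller tail of the same exact permutation test gave an adjusted p of 0.0635 for each of the 3, above the threshold of 0.05. The ratios are therefore given as values without a call. Without the library labelled E3KO replicate 1 the log2 differences were 0.68 for Nid1 to Nid2, 0.20 for Col4a2 to Col4a1 and 0.71 for Lama4 to Lama5, with adjusted exact permutation p of 0.0714, 0.0714 and 0.179. With 2 libraries against 6 the smallest exact p is 0.0357, which limits what this comparison can pass.

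**Figure D3:**
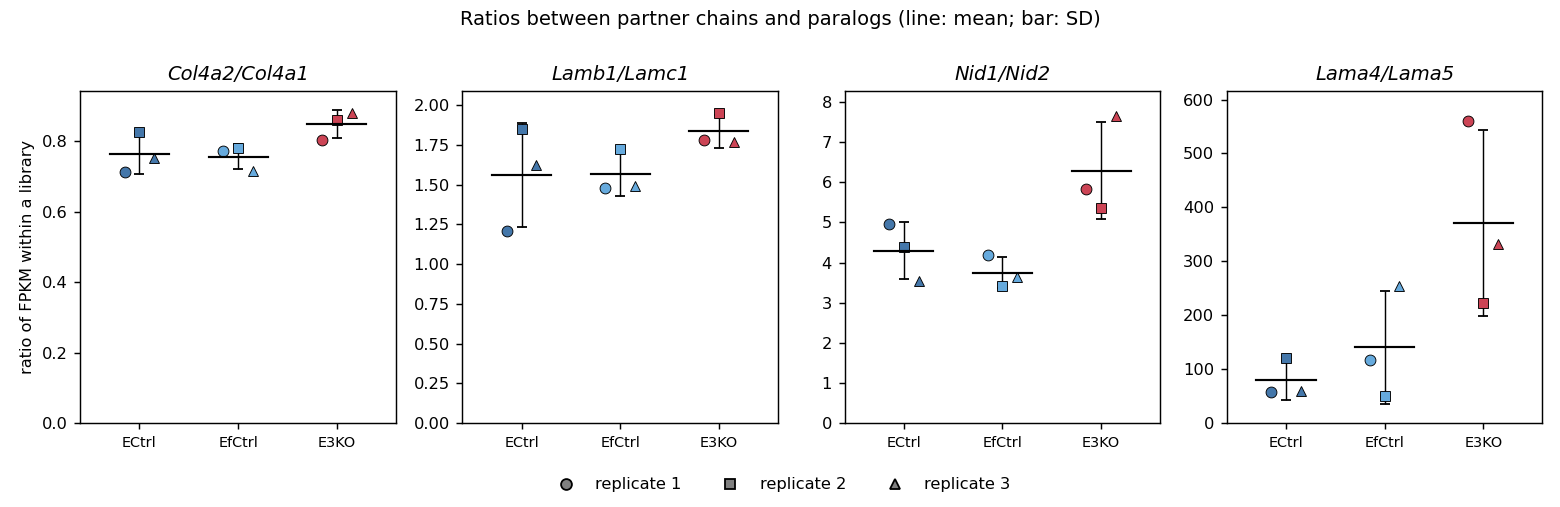
Ratio of FPKM within each library (y axis, from 0) for 4 pairs of chains or paralogs in the ECtrl, EfCtrl and E3KO groups; each symbol is 1 library, the line the mean and the bar the SD (n = 3). The E3KO libraries lie above all controls only for Nid1/Nid2 (5.37 to 7.66 against 3.42 to 4.97).

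The levels of the members spanned a wide range in control cells. FPKM is per kilobase, so levels can be set between genes. The mean of the 6 controls was 313 FPKM for Col18a1, 172 for Col4a1, 131 for Col4a2, 127 for Nid1 and 123 for Lama4. It was 98.6 FPKM for Lamb1, 63.5 for Lamc1, 32.2 for Nid2, 9.24 for Hspg2 and 1.5 for Lama5. Col18a1 ranked 161 among 33353 symbols and Lama5 ranked 10627. Of the 9 neighbouring pairs in this order, 7 kept their order in all 6 controls (exact sign-flip permutation p = 0.0312, adjusted 0.0402, the smallest p that 6 libraries allow). Col4a2 and Nid1 (adjusted p = 0.688, exact permutation) and Nid1 and Lama4 (0.246) did not differ beyond their spread. Nid1 ranked 3 among the 10 members in ECtrl replicate 1, 4 or 5 in the other controls, 3 in E3KO replicates 1 and 2 and 1 in E3KO replicate 3.

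The promoter windows were searched for AP-1 and other motifs. RefSeq gave 8 windows of 300 bases for 7 members, and the letters TGANTCA, searched on both strands, were in 0 of the 8 and in 7.81% of all 32851 windows. The cyclic AMP response element TGACGTCA was in 0 of the 8 (1.79% of all). The GC box GGGCGG was in 7 of the 8 (35.7% of all), CCAAT in 5 (37.4%) and TATAAA in 0 (13.6%). Among these, the windows of Col4a1 and Col4a2 share bases and are not independent. With so few windows, a count of 0 beside such low shares is not read as a trait of the members.

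By Pearson correlation of log2 values over the 9 libraries, the genes most like Nid1 were Magt1 (r = 0.958), Armcx4 (0.954) and Insig1 (0.948). Those most like Col4a2 were Heg1 (0.981), Pon3 (0.979) and Golm1 (0.979). Larp7 was most like Lamc1 (0.954) and Arhgef7 most like Col18a1 (0.928). These are descriptions, and the points share the 9 libraries and their group structure.

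Other basement membrane genes included members that were called. Of 28 such genes, 16 were tested, 1 rose and 2 fell (1.54% and 3.26% of all genes tested), and their median log2 fold change was 0.11 (all genes -0.08). The 1 that rose reached the minimum of 2 FPKM only in E3KO. Smoc1, a calcium-binding basement membrane glycoprotein, was 0.539 to 1.4 FPKM in the controls and 5.51, 4.8 and 5.54 in E3KO, and it rose (log2 fold change 1.71, SE 0.16, limma adjusted p = 0.00725). Its mean was 0.941 FPKM in the controls, under the minimum of 2, and 5.28 in E3KO. It entered the test only through the group where it is high, and its call carries that limit. Col15a1, a collagen related to Col18a1, was 5.31 to 8.12 FPKM in the controls and 3.99, 2.8 and 2.65 in E3KO, and it fell (-0.92, SE 0.16, limma adjusted p = 0.0224). Ntn4, a laminin-related netrin, was 75.5 to 105 FPKM in the controls and 65.3, 59.8 and 51.4 in E3KO, and it fell (-0.54, limma adjusted p = 0.0495). Of the 16 tested, 2 had every E3KO library above all controls (5.18% of all genes) and 3 had every one below (11.5%). Smoc1, Col15a1 and Ntn4 are among these, which restates their calls. Fn1, fibronectin, was the most abundant of the list at 1505 FPKM in the controls and was not called (0.14). Its value was 0.29 without the library labelled E3KO replicate 1 and 0.02 without E3KO replicate 3. Fbln1, fibulin-1, had a log2 fold change of -1.02 (limma adjusted p = 0.124), and of -0.52 without the library labelled E3KO replicate 1, where it was 0.055 FPKM.

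Among 23 tested genes of collagen assembly, 1 rose and 0 fell, beside 1.54% and 3.26% of all genes. Leprel1 (P3h2), a prolyl 3-hydroxylase, was 1.37 to 2.5 FPKM in the controls and 3.85, 4.17 and 3.02 in E3KO (log2 fold change 0.71, limma adjusted p = 0.0476). Neither control group of Leprel1 reached a mean of 2 FPKM, and E3KO did (3.68). It entered the test only through the group where it is high, and the count of 1 rests on it. P4hb, a subunit of prolyl 4-hydroxylase, was the most abundant at 368 FPKM in the controls (0.10, not called). With 1 library left out its value was 0.03 to 0.21, the highest without the library labelled E3KO replicate 1. Leprel4 was 68.6 FPKM and Lepre1 57.4 FPKM in the library labelled E3KO replicate 1, against at most 23.8 and 34.5 in the other 8 libraries, and without it their log2 fold changes were 0.00 and 0.27 in place of 0.56 and 0.55. Of 18 tested genes of heparan sulfate assembly, 0 rose and 1 fell, beside the same shares of all genes. Ext1, a polymerase of the heparan sulfate chain, was 72.5 to 115 FPKM in the controls and 65.5, 58.1 and 48.6 in E3KO (-0.68, limma adjusted p = 0.0495). Hs6st2 (0.84, and 0.57 without the library labelled E3KO replicate 1) and Xylt2 (-0.71) were not called.

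None of the 16 tested receptors of the basement membrane was called, beside 4.8% of all genes. Itgb1, the integrin beta-1 chain, was the most abundant at 482 FPKM in the controls (log2 fold change -0.20), and Itgb5 (0.70), Itga2 (0.70) and Sdc1 (-0.59) had the largest differences. They were 1.10, 0.89 and -0.24 without the library labelled E3KO replicate 1. Without E3KO replicate 3 the value of Itga2 was 0.44, and without E3KO replicate 2 that of Itgb5 was 0.47. Itgb5 (mean of the controls 1.47 FPKM) and Itga2 (1.82 FPKM) reached the minimum of 2 FPKM only in E3KO, where they are high. Of 8 tested interstitial matrix genes 1 rose and 1 fell, beside 1.54% and 3.26% of all genes. Bgn, the proteoglycan biglycan, was 8.31 to 34.6 FPKM in the controls and 85.8, 80.4 and 127 in E3KO, and it rose (2.21, SE 0.36, limma adjusted p = 0.0182). Fbn1, fibrillin-1, was 7.01 to 11.3 FPKM in the controls and 3.56, 3.78 and 3.55 in E3KO, and it fell (-1.06, limma adjusted p = 0.011). Tnc, tenascin C, was the most abundant at 365 FPKM in the controls (-0.53, limma adjusted p = 0.0664). Col1a2 and Col1a1, also among the fibroblast markers, had log2 fold changes of -1.61 and -1.33 and were not called (limma adjusted p = 0.103 and 0.135). Against each control group alone, Smoc1 and Fbn1 were called in both comparisons. Bgn and Col15a1 were called against ECtrl but not against EfCtrl (limma adjusted p = 0.0755 and 0.0648), and Ntn4, Leprel1 and Ext1 were called against neither. The calls of Ntn4, Leprel1 and Ext1 lay close to the threshold, and a pseudocount of 0.1 or 0.5 ended each of them (limma adjusted p 0.0516 to 0.0584). Without the library labelled E3KO replicate 1, Smoc1, Col15a1, Bgn and Fbn1 were still called, Ntn4, Leprel1 and Ext1 were not, and Itgb5 was called higher. The gained call of Itgb5 carries the same limit as that of Smoc1, since only E3KO brought it into the test. Bgn (limma adjusted p = 0.0837), Fbn1 (0.0672) and Col15a1 (0.0948) were not called without E3KO replicate 3. Leaving out 1 library ended the call of Col15a1 in 4 of 9 cases, and so did the replicate block. Smoc1 was called in each of these 9 cases, but only its E3KO values brought it into the test, so no stability is read from this.

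**Figure D4:**
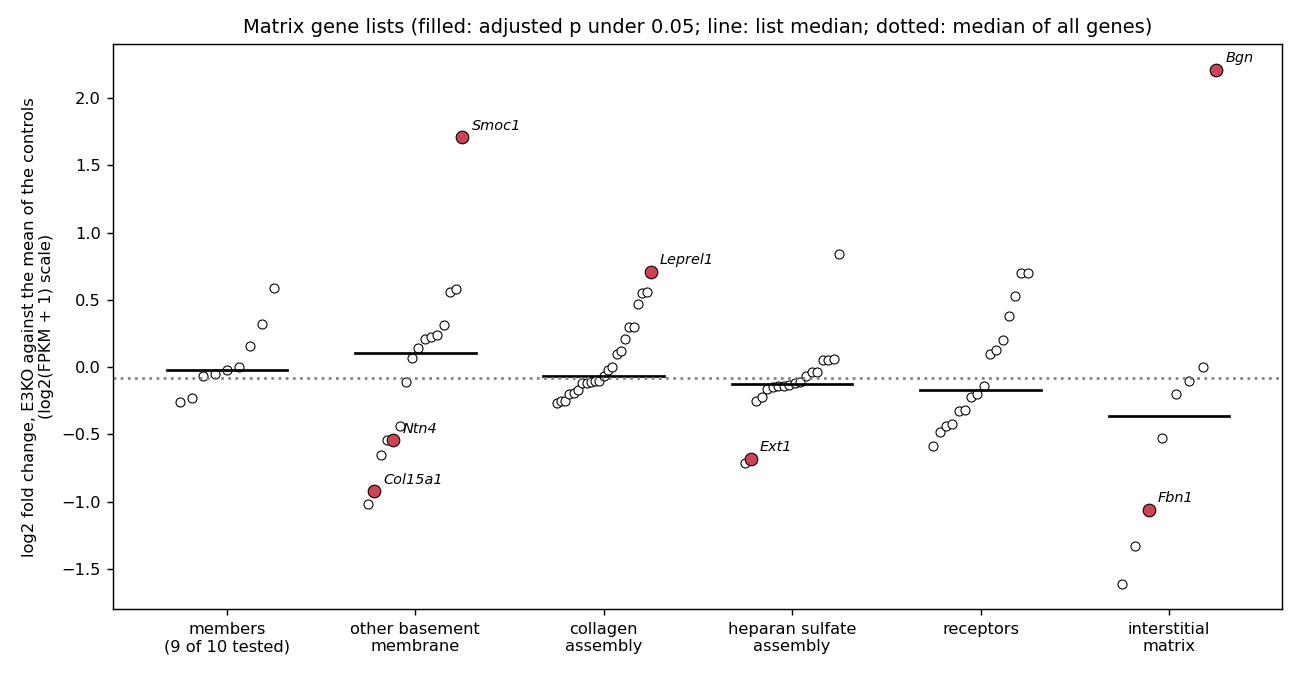
Log2 fold change of E3KO against the mean of the controls on the log2(FPKM + 1) scale (y axis) for the tested genes of 6 matrix gene lists (x axis); filled points passed at an adjusted p under 0.05, lines are list medians and the dotted line is the median of all genes, -0.08. No member is filled, whereas Smoc1 (1.71) and Bgn (2.21) lie highest in their lists. Smoc1 and Leprel1 reached the minimum of 2 FPKM only in E3KO.

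Markers of other cells also moved between libraries. The summed FPKM of 10 smooth muscle and pericyte markers was 14.7, 42.4 and 34.5 in ECtrl, 29.5, 53.2 and 66.5 in EfCtrl and 17.8, 21.7 and 22.3 in E3KO. Their most abundant gene was Acta2 (19.0 FPKM in the controls), and Pdgfrb was at most 0.44. The sum of 10 fibroblast markers, led by Dcn, was 9.08 to 33.2 in the controls and 5.23, 10.1 and 15.1 in E3KO, and Pdgfra was at most 0.713 FPKM. The sum of 11 leukocyte markers, led by Lyz2, was 73.0 to 260 in the controls and 222, 293 and 320 in E3KO, and Ptprc was at most 1.59 FPKM. Cd68, a macrophage marker named after its values were seen, was 12.8 to 26.8 FPKM in the controls and 17.6, 40.3 and 50.6 in E3KO, in the same order over the E3KO libraries as Nid1. Of the other 4 leukocyte markers tested, Lyz2 had that order too (133, 212 and 221 FPKM in E3KO), whereas Cd52 (25.2, 4.06 and 6.54), Itgb2 (8.03, 5.58 and 7.58) and Cd14 (35.5, 26.5 and 27.1) were highest in the library labelled E3KO replicate 1. None of the 5 was called. Cd68 (log2 fold change 0.80, limma adjusted p = 0.165) was the 1 of the 5 called higher without the library labelled E3KO replicate 1, as Nid1 was.

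The sum of 5 mesothelial markers was 0.0979 to 3.6 in the controls and at most 0.553 in E3KO. The sum of 12 epithelial markers was 52.0 in the library labelled E3KO replicate 1 and 3.34 to 6.16 in the others, of which Scgb1a1, a club cell secretory protein, was 46.2. ECtrl replicate 1 was the lowest control in the smooth muscle, fibroblast, leukocyte, mesothelial, epithelial and pan-endothelial sums (the last 3135, and 3524 to 3865 in the other controls), the highest in the lymphatic sum (3488, and 2592 to 2942 in the others), and the lowest in 8 of the 10 members, all but Lama5 and Lamc1. The part of these markers in the members' values was not tested. Of the 8 lymphatic markers tested, 3 fell (Prox1, Ccl21a and Reln), beside 3.26% of all genes, and of 11 pan-endothelial markers Emcn rose (0.63) and Cldn5 fell (-0.92). Prox1 and Reln were still called without the library labelled E3KO replicate 1, and Ccl21a, Emcn and Cldn5 were not (limma adjusted p = 0.0638, 0.054 and 0.0704). The calls of Prox1 and Reln were lost without E3KO replicate 3 (limma adjusted p = 0.0746 and 0.0803). Against each control group alone Prox1 and Reln were called in both comparisons, and Ccl21a, Emcn and Cldn5 in neither. Fewer cells of a kind and less RNA per cell cannot be told apart in these bulk cultures.

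**Figure D5:**
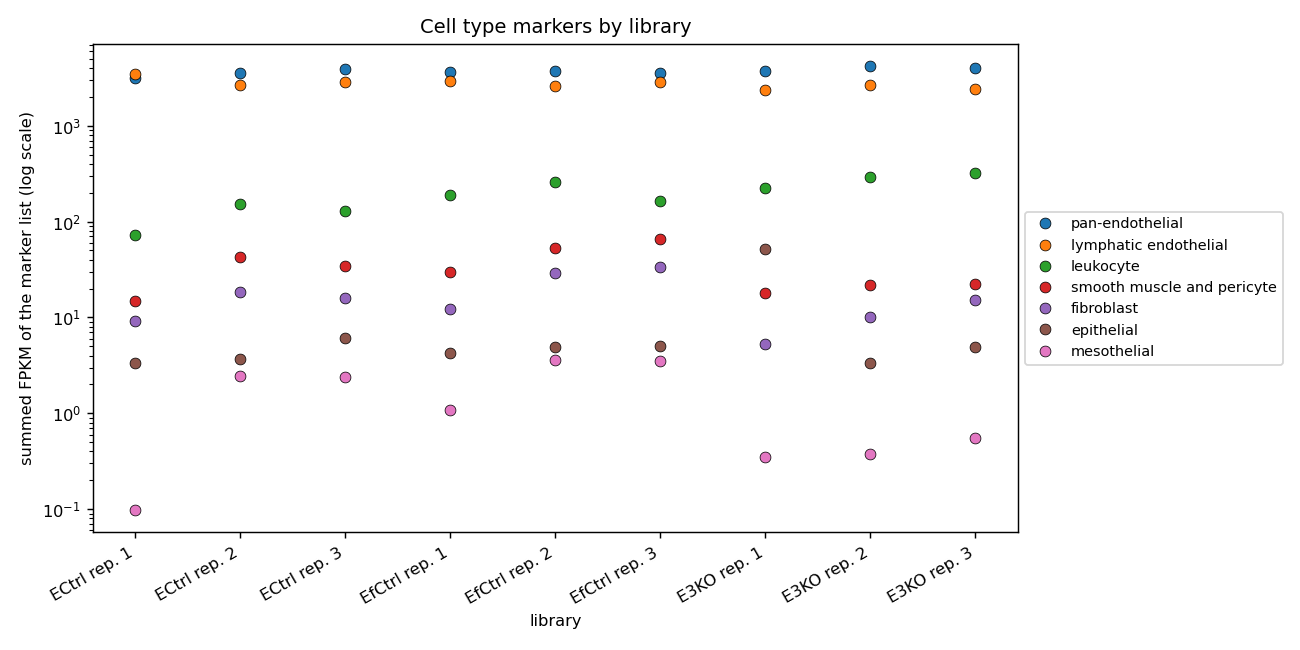
Summed FPKM (y axis, log scale) of 7 cell type marker lists in each of the 9 libraries (x axis). Pan-endothelial and lymphatic markers lie highest in every library, and the epithelial sum is 52.0 in the library labelled E3KO replicate 1 against 3.34 to 6.16 in the others.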

How the data were processed

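Primary MLEC RNA-seq libraries (3 ECtrl, 3 EfCtrl, 3 E3KO) were grouped by their labels. The authors aligned paired reads to mm10 with TopHat and Bowtie and estimated the deposited FPKM with Cufflinks (1.0.3 in the submitters' processing notes). The deposited FPKM of each library was used. The deposited group values and the authors' fold changes, p-values and q-values were not used. The 3749 loci whose symbol names more than 1 locus were dropped, and 10605 genes with a group mean of at least 2 FPKM were tested. A linear model on log2(FPKM + 1) of the 9 libraries, with no block, was moderated in limma (3.58.1, under R 4.3.3) and adjusted by Benjamini-Hochberg, and the script was tested on simulated data. Single genes and ratios were compared with exact two-sided permutation tests enumerated in Python (3.11.15), and scipy (1.17.1) gave the doubled tail. Unless the doubled tail is named, the p is the share of splits with an absolute difference at least as large. The ratios were first computed with the doubled tail. The form with the absolute difference was put in its place, to match the smallest p written in the design, after those values had been seen. Both are therefore given. Members and lists were chosen with earlier results of these data known. Named genes are the members, the JNK genes, and from each list the genes called, the most abundant, and up to 3 with the largest absolute change, plus the 3 genes most like each of the 4 most changed members. Promoters came from RefSeq (GRCm38.p6), where Lama4, Lamc1 and Nid2 were not matched, and gene spans from the files and GENCODE M21. Alternatives changed the pseudocount, the minimum, the scaling, the weights, the block and the libraries.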

Additional observations from a re-analysis of the deposited data

Results flagged for a closer look

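Among the 6 control libraries, 3 values stood apart from the other 5 by a gap that was large against the range, of 37 genes and ratios examined; chance gives this in about 1 group of 20. Col4a2 was 100.0 FPKM in ECtrl replicate 1 and 131 to 140 in the other controls. Lamb1 was 76.5 FPKM in the same library and 98.3 to 111 in the others. The ratio of Lama4 to Lama5 was 255 in EfCtrl replicate 3 and 49.8 to 121 in the others, where Lama5 was 0.522 FPKM.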

How the results depend on the processing

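Under the alternatives that kept all libraries, 78 recomputed counts and ratios stayed within 1.5 times or on their side of the threshold. Another 11 counts moved further, and 3 ratios crossed the threshold. Many of the 78 were counts of 0 that stayed 0. In addition, 13 log2 fold changes of single genes, none of them called, changed sign. Over all genes, of the 509 calls against the mean of the controls, 404 remained with a pseudocount of 0.1 and 191 with the replicate block. Without E3KO replicate 3, 9 remained. No member was called at first, so none could lose a call. The named genes that were called lost their call 29 times with all libraries kept and 60 times with 1 left out. Of 10 settings, Ntn4 and Ext1 lost it in 7 each, Leprel1 in 6 of 9, Mapk9, Emcn, Cldn5 and Ccl21a in 2 each and Col15a1 in 1. With 1 of the 9 libraries left out, Ext1 lost it in 9 cases, Ntn4, Leprel1 and Mapk9 in 8, Cldn5 and Ccl21a in 7, Emcn in 5 and Col15a1 in 4, and Bgn, Fbn1, Prox1 and Reln in 1, without E3KO replicate 3. Among the named genes a call was gained 11 and 6 times. The order of levels lost 42 calls with 1 control left out, where no p under 0.0625 is possible. With library quality weights the genes called, of 10605 tested, were 1333 against the mean of the controls, 460 against ECtrl and 1238 against EfCtrl. These stand in place of 509, 239 and 101. The members called were 2 (Nid1 and Col4a2), 1 (Nid1) and 2 (Nid1 and Col4a2). With no filter on low values 95 genes were called against ECtrl and 17 against EfCtrl. Whether the replicate numbers pair the libraries is not settled. The correlation of deviations was -0.04 to 0.123 between libraries of the same number and -0.215 to 0.079 between the others. Of the 9 same-number pairs 2 were over 0.1, both between ECtrl and EfCtrl (replicates 1 and replicates 2). The replicate block gave 202 genes against the mean of the controls, 1 against ECtrl and 1 against EfCtrl, and 0 members. Leaving out 1 library at a time gave 9 to 408 genes called against the mean of the controls, 0 to 215 against ECtrl, 1 to 218 against EfCtrl and 0 to 4 between the controls, and 0 to 1 members against the mean of the controls and against ECtrl. The lowest of these counts for E3KO came without E3KO replicate 3. The cause was not tested.

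A two-sided p from the doubled smaller tail, added after seeing the data, left the log2 ratio differences at 0.63 (Nid1/Nid2), 0.16 (Col4a2/Col4a1) and 0.76 (Lama4/Lama5) but moved each adjusted exact permutation p from 0.0476 to 0.0635. Leaving out 1 library gave 0.48 to 0.74, 0.13 to 0.20 and 0.65 to 0.92 for these, and 0.17 to 0.29 for Lamb1/Lamc1; without ECtrl replicate 2, Nid1/Nid2 (0.66) and Col4a2/Col4a1 (0.18) did not overlap and passed (adjusted exact permutation p = 0.0357), Lamb1/Lamc1 (0.29) came to pass (0.0476) and Lama4/Lama5 (0.81) did not (0.0536). In the other 8 cases none of the 4 ratios passed (Nid1/Nid2 0.0714 to 0.143), but the smallest exact p is then 0.0179 or 0.0357, so a ratio that alone is at it cannot pass after adjustment over 4, and these misses say nothing about stability.

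Median centring gave log2 fold changes against the mean of the controls of 0.01 for Lama4, 0.05 for Lamb1, 0.03 for Nid2 and 0.00 for Lyve1, and 0.06 against ECtrl for Lama4. Quantile normalization gave 0.02 for Lama4 against ECtrl and 0.00 for Dcn. Library quality weights gave 0.02 for Lama4 against ECtrl and, against the mean of the controls, 0.02 for Lamb1, 0.08 for Nid2, -0.02 for Kcnj8, 0.18 for Dcn and -0.06 for Scgb1a1. Leaving out 1 library at a time gave, against the mean of the controls, -0.10 to 0.04 for Lamb1, -0.15 to 0.12 for Nid2, -0.29 to 0.30 for Hspg2, -0.01 to 0.10 for Kcnj8, -0.67 to 0.23 for Dcn and -0.14 to 0.18 for Krt18. It gave -0.34 to 0.00 for Col18a1, -0.07 to 0.04 for Lama4, -0.13 to 0.13 for Lamb1 and -0.09 to 0.22 for Nid2 against ECtrl, and -0.01 to 0.20 for Col4a1 and -0.25 to 0.01 for Nid2 against EfCtrl.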
